A study of Mus musculus with 8 samples.

Results

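The 10 genes followed here act in glucose uptake and glycolysis, and were measured in RNA from the endometrium of the mouse uterus: Slc2a1, Slc2a3, Hk1, Hk2, Pfkl, Pfkp, Aldoa, Gapdh, Pkm and Ldha. They were taken by symbol, as 10 of the 52325 genes in the table of estimated counts, and all 10 were among the 18174 genes with enough counts to be tested. The study compared 4 libraries of WT mice with 4 libraries of Thra1PV/+ mice, females brought to the metestrus stage of the estrous cycle. Endometrium was cut by laser capture from frozen uterine sections, so epithelium, stroma and other cells of the captured area were measured together, and a smaller share of one cell type cannot be told apart from less RNA per cell. Thra1PV/+ mice carry in every cell 1 allele of the thyroid hormone receptor gene Thra with the PV frameshift, whose product lacks hormone binding and blocks the normal receptors. The labels name no treatment, and the ages of these animals are not given in the sources used here. The replicates are described as separate mice, but the labels tie no library to an animal number. Library totals ranged from 48791602 to 59818887 estimated counts.

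Cells take up glucose through transporters of the SLC2A (GLUT) family and trap it by phosphorylation with a hexokinase. Phosphofructokinase then makes the committed step of glycolysis, and aldolase, glyceraldehyde-3-phosphate dehydrogenase and pyruvate kinase carry the carbon to pyruvate, which lactate dehydrogenase can reduce to lactate. Several of these genes are textbook targets of the hypoxia-inducible factors, and in the uterus glucose supply and lactate output are known for their part in preparing the endometrium for an embryo. Thyroid hormone is a known regulator of glucose use in several tissues.

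None of the 10 genes was called different between the genotypes, and the libraries of each genotype overlapped for all 10. The larger differences lay between libraries of one genotype: 8 of the 10 genes were lower in Thra1PV/+ library 1, WT library 1 and WT library 2 than in every one of the other 5 libraries, and the remaining genes, Hk1 and Slc2a3, were higher in those 3 libraries than in the other 5. Of all tested genes, 9.67% were lower and 13.7% higher in the same split. The 3 libraries were picked out after the values were seen, so this is a description without a test. Within a genotype the highest library exceeded the lowest by 5.12-fold and 5.35-fold for Slc2a1 (Thra1PV/+ and WT) and by 6.89-fold and 6.55-fold for Hk2, but by only 1.36-fold and 1.37-fold for Hk1.

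The bases just upstream of the start are shown for Slc2a1, Hk2 and Ldha, which are among the 8 genes that moved together across libraries. Hk1 is set beside them as the gene that varied least, though it was higher in the 3 libraries low for those genes (72.5 to 75.0 CPM) than in the other 5 (53.9 to 65.4 CPM). Each run is 250 bases before a RefSeq transcription start on GRCm38.p6, written 5′ to 3′ on the gene's strand. Capitals mark ACGTG or GCGTG, the 2 forms of the core bound by hypoxia-inducible factors, on either strand, so that CACGT and CACGC are their reverse complements, and CACGTG, the E-box, which holds ACGTG on both strands.
Slc2a1 (chr4:119108495-119108744, plus strand): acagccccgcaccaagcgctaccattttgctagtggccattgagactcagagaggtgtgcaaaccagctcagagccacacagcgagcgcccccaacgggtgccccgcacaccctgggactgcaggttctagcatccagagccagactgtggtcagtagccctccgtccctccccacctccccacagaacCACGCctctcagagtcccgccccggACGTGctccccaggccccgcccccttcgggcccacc
Hk2 (chr6:82774455-82774704, minus strand): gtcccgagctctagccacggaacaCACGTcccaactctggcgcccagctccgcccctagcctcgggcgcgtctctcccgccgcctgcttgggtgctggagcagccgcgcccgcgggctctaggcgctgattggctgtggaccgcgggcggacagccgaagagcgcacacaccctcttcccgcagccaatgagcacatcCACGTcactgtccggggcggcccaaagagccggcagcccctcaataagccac
Ldha (chr7:46845554-46845803, plus strand): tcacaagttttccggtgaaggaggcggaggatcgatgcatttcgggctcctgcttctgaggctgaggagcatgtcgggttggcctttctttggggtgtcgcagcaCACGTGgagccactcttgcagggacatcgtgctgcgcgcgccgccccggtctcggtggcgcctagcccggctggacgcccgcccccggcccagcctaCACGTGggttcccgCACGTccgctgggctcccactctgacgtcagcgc
Hk1 (chr10:62379909-62380158, minus strand): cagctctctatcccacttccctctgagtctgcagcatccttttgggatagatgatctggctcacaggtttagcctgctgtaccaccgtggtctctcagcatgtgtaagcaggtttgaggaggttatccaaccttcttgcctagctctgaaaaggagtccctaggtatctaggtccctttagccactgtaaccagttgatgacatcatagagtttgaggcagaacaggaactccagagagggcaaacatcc
The Slc2a1 window holds 1 ACGTG and 1 GCGTG, and the Hk2 window holds 2 ACGTG. The Ldha window, which precedes a RefSeq start lying 4329 bases downstream of the GENCODE gene start, holds 5 ACGTG matches on the 2 strands together, 4 of them within 2 E-boxes. The Hk1 window holds none of the 3 motifs. Of the other genes with a window, Pfkp had 3 GCGTG matches, Gapdh 2 and Pfkl 1, while Aldoa and Pkm had none, and these 2 varied with the library as the rest did. AGGTCA, the half-site of thyroid hormone receptors, was in none of the 9 windows examined, 1 per gene. Where RefSeq gave a gene more than 1 window, as for Hk1, Aldoa, Pkm and Ldha, the one nearest the GENCODE gene start was taken, and the others are not described. Among 32851 RefSeq windows of this length, 16.6% held ACGTG, 28.2% GCGTG, 6.02% the E-box and 14.0% AGGTCA. The windows printed for Slc2a1, Hk2 and Ldha are the only ones of the 9 that hold ACGTG. A match is a run of letters and not a measured binding site. The part of these motifs in the differences between libraries was not tested.

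Slc2a1 (chromosome 4, 119108711-119137983, plus strand, GRCm38) encodes GLUT1, the widely expressed transporter that supplies basal glucose. It measured 49.0, 251, 221 and 115 CPM (counts scaled to a common library size with TMM factors) in Thra1PV/+ libraries 1 to 4 and 65.0, 32.6, 174 and 158 CPM in WT libraries 1 to 4. High and low libraries were present in both genotypes. The edgeR quasi-likelihood test gave a log2 fold change of 0.56 (SE 0.63, Thra1PV/+ against WT) with a Benjamini-Hochberg adjusted p of 0.838, and its 95% interval ran from -0.88 to 2.005.

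Slc2a3 (chromosome 6, 122727809-122801640, minus strand) encodes GLUT3, a high-affinity transporter known from neurons and white blood cells. It measured 17.1, 11.2, 10.9 and 8.56 CPM in Thra1PV/+ libraries 1 to 4 and 25.2, 154, 5.49 and 13.2 CPM in WT libraries 1 to 4. WT library 2 stood far above the other 7, which lay within 5.49 to 25.2 CPM. The log2 fold change was -2.05 (SE 0.93), with an unadjusted p of 0.0573 and an adjusted p of 0.532 in edgeR, and without WT library 2 it was -0.27. The 7 neutrophil markers tested summed to 10.5 CPM in WT library 2, the lowest of the 8 libraries. The 8 macrophage markers summed to 535 CPM there against 299 to 1346 CPM over all libraries. The T cell markers summed to 8.2 CPM there against 3.84 to 28.0 CPM. Which cells held the Slc2a3 RNA of this library was not tested.

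Hk1 (chromosome 10, 62268855-62379908, minus strand) encodes the hexokinase present in most cells. Its CPM were 75.0, 64.9, 65.4 and 55.3 in the Thra1PV/+ libraries and 73.7, 72.5, 56.8 and 53.9 in the WT libraries. This was the most even of the 10 genes, with means of 65.2 ± 8.06 CPM in Thra1PV/+ and 64.2 ± 10.3 CPM in WT (SD, n = 4 each). The fitted log2 fold change was 0.02 (SE 0.15), and the 95% interval from -0.33 to 0.37 lies inside a 2-fold change in either direction.

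Hk2 (chromosome 6, 82725025-82774454, minus strand) encodes the inducible hexokinase of muscle, fat and fast-growing cells. It was at 42.3, 291, 157 and 101 CPM in Thra1PV/+ libraries 1 to 4 and at 56.8, 36.2, 178 and 237 CPM in WT libraries 1 to 4. The ranges nearly coincided. The log2 fold change was 0.22 (SE 0.71, edgeR adjusted p = 0.956), with an interval from -1.41 to 1.85 that leaves more than a 2-fold difference either way within the error.

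**Figure D1:**
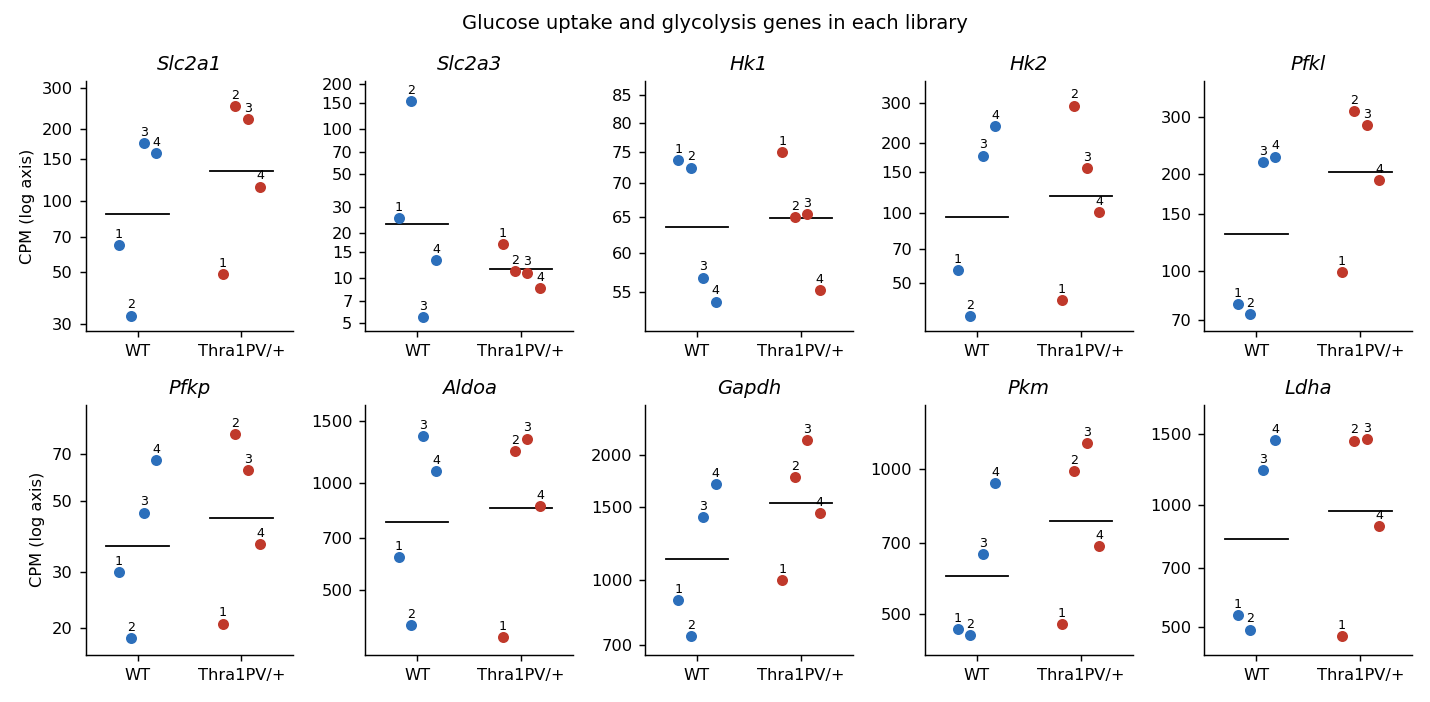
CPM of the 10 genes on log axes, one point per library, numbered by replicate, with WT in blue, Thra1PV/+ in red and the geometric mean of each genotype as a bar. Libraries 1 and 2 of WT and library 1 of Thra1PV/+ lie at the bottom for 8 genes and at the top for Hk1 and Slc2a3, whose highest point is WT library 2 at 154 CPM.

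Pfkl and Pfkp encode the liver-type and platelet-type subunits of phosphofructokinase. Pfkl (chromosome 10, 77986947-78010083, minus strand) measured 98.8, 314, 283 and 191 CPM in Thra1PV/+ libraries and 78.7, 73.2, 217 and 226 CPM in WT libraries. It had the highest fitted log2 fold change of the 10, 0.58 (SE 0.49), with an edgeR adjusted p of 0.770. Libraries 2 and 3 of Thra1PV/+ were above every WT library, while library 1 was with the low WT libraries. Pfkp (chromosome 13, 6579768-6648777, minus strand) measured 20.7, 80.6, 62.3 and 36.6 CPM against 29.9, 18.7, 45.9 and 67.2 CPM, a log2 fold change of 0.31 (SE 0.49, adjusted p = 0.897).

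Aldoa (chromosome 7, 126795234-126800751, minus strand) encodes the main aldolase outside liver and brain. It measured 367, 1233, 1335 and 863 CPM in Thra1PV/+ libraries 1 to 4 and 620, 397, 1356 and 1079 CPM in WT libraries 1 to 4. The highest library was WT and the lowest Thra1PV/+, with a log2 fold change of 0.14 (SE 0.48, edgeR adjusted p = 0.960). A separate annotated locus with the same symbol, at 126800790-126809108 on the same strand, held 4 to 31 counts per library and was kept apart.

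Gapdh (chromosome 6, 125161715-125166467, minus strand) encodes glyceraldehyde-3-phosphate dehydrogenase, often used as a reference gene. It measured 1002, 1763, 2168 and 1448 CPM in the Thra1PV/+ libraries and 895, 734, 1419 and 1702 CPM in the WT libraries. Gapdh thus differed 2.16-fold among the Thra1PV/+ libraries and 2.32-fold among the WT libraries, against a fitted genotype difference of 1.34-fold (log2 0.43, SE 0.33, edgeR adjusted p = 0.747).

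Pkm (chromosome 9, 59656368-59679375, plus strand) encodes the muscle-type pyruvate kinases, and its alternative M1 and M2 forms cannot be told apart in gene-level counts. It measured 475, 989, 1130 and 691 CPM in the Thra1PV/+ libraries and 464, 451, 664 and 933 CPM in the WT libraries. Low and high libraries again occurred in both genotypes, and the log2 fold change was 0.39 (SE 0.34, edgeR adjusted p = 0.775).

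Ldha (chromosome 7, 46841475-46855627, plus strand) encodes the lactate dehydrogenase subunit that favours lactate formation. It measured 473, 1442, 1455 and 885 CPM in Thra1PV/+ libraries 1 to 4 and 534, 492, 1218 and 1445 CPM in WT libraries 1 to 4. The top values of the genotypes were nearly equal, and the log2 fold change was 0.21 (SE 0.47, edgeR adjusted p = 0.935).

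Across all tested genes, 180 (0.99%) passed the call of a 2-fold change and an adjusted p of 0.1 or less, against 0 of the 10 genes. At an unadjusted p under 0.05 the count was 0 of 10 against 9.77% of tested genes, and 0 of 10 against 6.04% for genotypes that do not overlap. DESeq2 also called 0 of the 10. In an exact two-sided permutation test of log2 CPM, gene by gene, no p was below 0.229, where 4 libraries against 4 allow 0.0286 at the smallest. The fitted log2 fold changes had a median of 0.26 and were above 0 for 9 genes and below 0 for Slc2a3, beside a median of -0.05 over all tested genes.

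**Figure D2:**
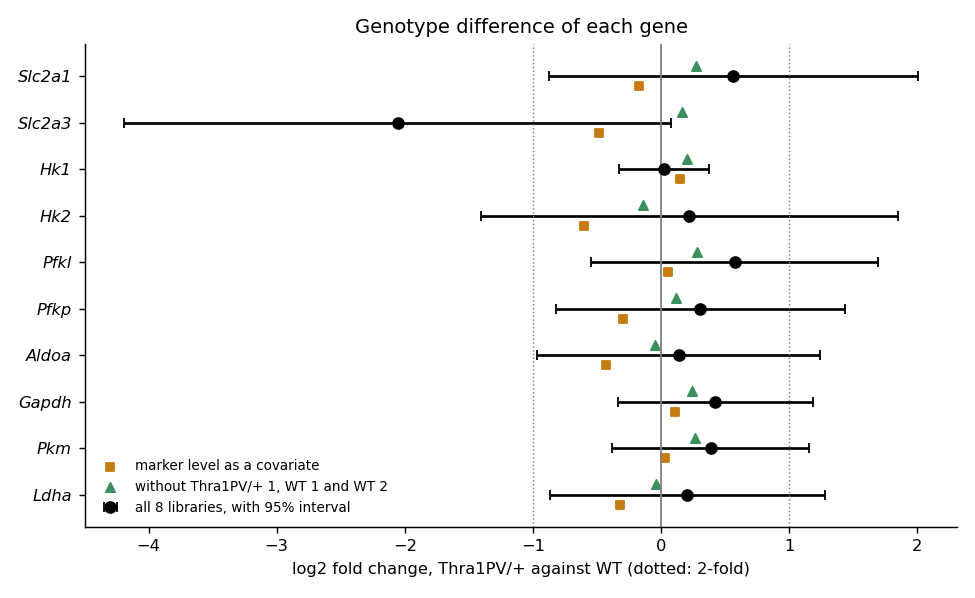
Log2 fold change of each gene, Thra1PV/+ against WT, with all 8 libraries (black, bars are 95% intervals), with the marker level of each library as a covariate (squares) and without Thra1PV/+ library 1, WT library 1 and WT library 2 (triangles). Every interval includes 0, and the squares move to the left of the black points for 8 genes, with 4 of 10 above 0.

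The spread within a genotype was wide for these genes. The SD of log2 CPM within genotypes had a median of 0.83 over the 10 genes, beside 0.29 over the 10525 tested genes with a mean of 10 CPM or more. Hk2 (1.23), Slc2a1 (1.11) and Slc2a3 (1.47) were the most variable. Hk1, at 0.21, was below the median of all genes at that level. Together the 10 genes took 0.293%, 0.628%, 0.667% and 0.464% of all counts in Thra1PV/+ libraries 1 to 4 and 0.289%, 0.267%, 0.448% and 0.570% in WT libraries 1 to 4.

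Taken over whole marker lists, the libraries low for glycolysis were those with the most stromal and the fewest epithelial markers. The mean log2 CPM of 10 markers of simple uterine epithelium minus that of 10 markers of endometrial stroma was -0.12 in Thra1PV/+ library 1, -0.61 in WT library 1 and -0.29 in WT library 2. In the other 5 libraries it lay between 2.19 (WT library 4) and 3.84 (Thra1PV/+ library 2). Summed over the list, the epithelial markers ran from 6793 to 17490 CPM in Thra1PV/+ and from 4408 to 25010 CPM in WT. The stromal markers ran from 489 to 4463 CPM in Thra1PV/+ and from 1532 to 5121 CPM in WT. Ltf was the largest part of the epithelial sum, at 4534 CPM in Thra1PV/+ library 1 and 16020 CPM in WT library 3. Single markers did not all split this way: Foxa2, Wnt7a, Cldn3, Pdgfrb and Dcn overlapped between the 3 libraries and the other 5. Wnt7a was highest in Thra1PV/+ library 1 (87.0 CPM) and Cldn3 in WT library 2 (472 CPM). Of all tested genes, 9.67% were lower in those 3 libraries than in each of the other 5, as 8 of the 10 genes were, and 13.7% were higher, as Hk1 and Slc2a3 were. The 3 libraries were picked out after the values were seen, so these counts are a description without a test.

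With that marker level as a covariate, the log2 fold changes of the 10 genes ran from -0.60 (Hk2) to 0.15 (Hk1) with a median of -0.23, and 0 were called. The marker level was not free of genotype. All 10 stromal markers had fitted log2 fold changes below 0 (median -0.83), with 0 called, while 4 epithelial markers were above 0 and 6 below. The covariate can thus take up part of a genotype difference, and this fit cannot tell the 2 apart. Without the 3 libraries they ran from -0.14 (Hk2) to 0.28 (Pfkl) with a median of 0.18, and 0 were called. That fit kept only Thra1PV/+ libraries 2, 3 and 4 and WT libraries 3 and 4, so a difference could easily go uncalled. The direction of the fitted genotype difference was therefore not stable for Slc2a1, Slc2a3, Hk2, Pfkp, Aldoa and Ldha, each of which changed sign under one fit or both.

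Other cell types differed between libraries as well. Summed markers of squamous epithelium were 3260 to 5319 CPM in Thra1PV/+ and 56.5 to 187 CPM in WT, with no overlap and 10 of 14 markers called higher. The 8 smooth muscle markers were 145 to 675 CPM in Thra1PV/+ and 568 to 1133 CPM in WT libraries 2 to 4, but 12940 CPM in WT library 1, and 8 of 8 were lower at an unadjusted p under 0.05 with 0 called. Skeletal muscle markers, with Myh1 and Myh4 at 0 in all libraries, were 2.33 to 5.87 CPM in Thra1PV/+ and 5.23 to 576 CPM in WT, the highest again in WT library 1, where Acta1 alone held 556 CPM. Tnnt3 was also highest there, at 18.3 CPM, but Mylpf stayed at 1.47 to 2.05 CPM in all libraries. The sum is thus mostly Acta1 and does not show skeletal muscle in that library. Summed red cell markers were 14.6 to 29.2 CPM and 17.1 to 179 CPM, neutrophil markers 80.2 to 739 CPM and 10.5 to 146 CPM, macrophage markers 299 to 1346 CPM and 531 to 815 CPM, T cell markers 5.68 to 28.0 CPM and 3.84 to 12.7 CPM, and endothelial markers 76.95 to 242 CPM and 118 to 267 CPM, in Thra1PV/+ and WT. The 3 libraries low for glycolysis also held more of some of these markers than each of the other 5. These were Pecam1, Cdh5, Kdr, Tek, Emcn, Hba-a1, Hba-a2, Hbb-bs, Hbb-bt, Smtn, Lyz2 and Cd2, and the other markers of these lists overlapped. The name stroma-rich, used below for the 3 libraries, thus rests on the stromal and simple epithelial lists alone. The part of these cells in the levels of the 10 genes was not tested.

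**Figure D3:**
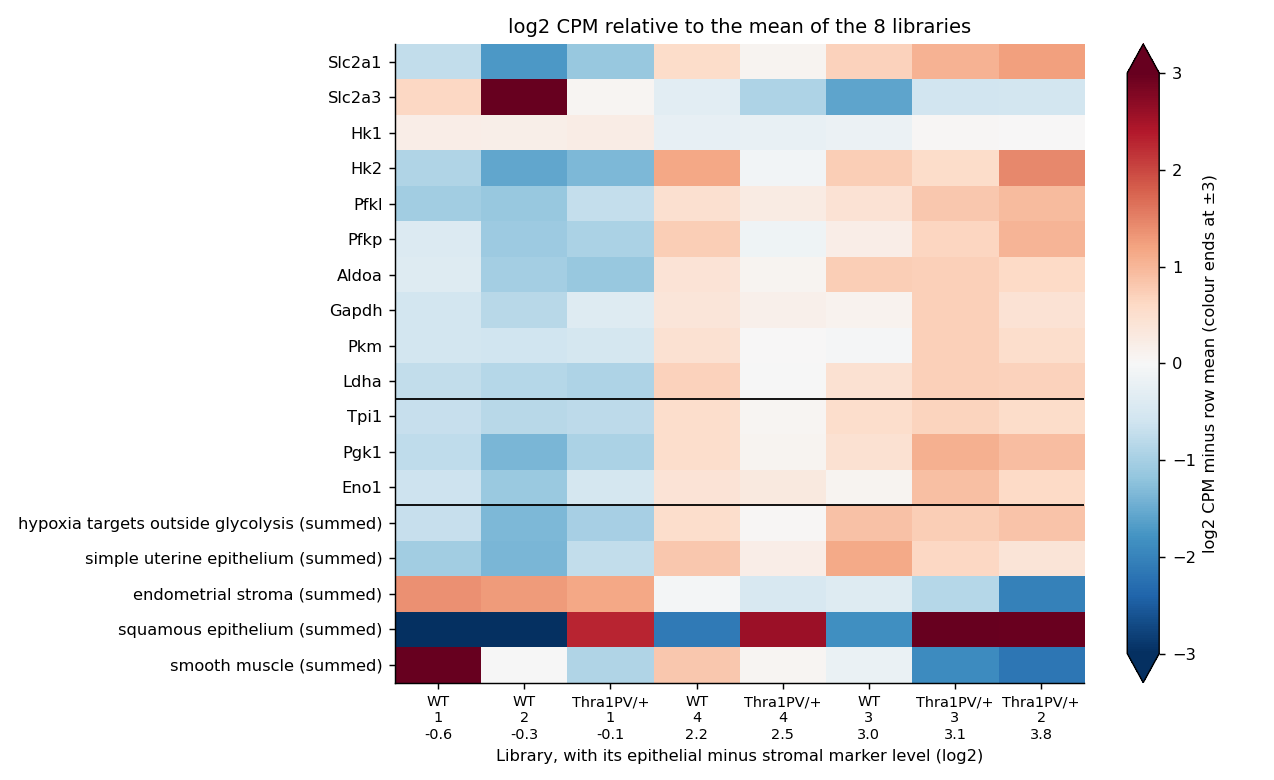
Log2 CPM of the 10 genes, 3 further glycolytic enzymes and 5 summed gene lists in each library, relative to the mean of the 8 libraries, with libraries ordered by their epithelial minus stromal marker level. The 3 libraries on the left, at marker levels from -0.61 to -0.12, are blue for 8 of the 10 genes and for the hypoxia and epithelial lists, and red for stroma, Hk1 and Slc2a3.

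The same split held for some of the other genes of the pathway. Of the 15 other glycolytic enzymes tested, 6 were lower in the 3 stroma-rich libraries than in each of the other 5 and 1, Pfkm, was higher. Of the 11 hexose transporters 1 was lower and 4 were higher. Of 6 other glycolytic enzymes at 100 CPM or more, named here after their values were seen, Gpi1, Tpi1, Pgk1, Pgam1 and Eno1 were lower in the 3 stroma-rich libraries than in the other 5, and Ldhb was not. Pgk1, phosphoglycerate kinase, measured 195, 713, 795 and 399 CPM in the Thra1PV/+ libraries and 224, 145, 519 and 547 CPM in the WT libraries. Among 14 hypoxia targets outside glycolysis, 13 were lower in these 3 libraries, all but Adm. Egln3, an oxygen-sensing hydroxylase, measured 50.8, 688, 610 and 222 CPM in the Thra1PV/+ libraries and 184, 6.59, 698 and 639 CPM in the WT libraries, the widest range of them. Of the 17 citrate cycle genes 0 were lower in those libraries and 2, Idh2 and Ogdh, were higher, beside the 9.67% and 13.7% of all tested genes. The part of the cell mixture in this split was not tested.

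Per length of transcript, as deposited TPM, Gapdh was the most abundant of the 10 genes in each genotype, at 1045 ± 306 TPM in WT and 1433 ± 293 TPM in Thra1PV/+ (SD, n = 4 each). Ldha followed at 737 ± 355 TPM in WT, then Aldoa at 686 ± 285 TPM and Pkm at 306 ± 89.6 TPM. In WT the neighbouring means among Gapdh, Ldha and Aldoa lay within the larger of their SDs of each other, although Gapdh was above Ldha in all 8 libraries, and Pkm was above the remaining 6 genes in every library. Hk2 (65.2 ± 42.9 TPM), Slc2a1 (57.9 ± 33.9 TPM) and Pfkl (46.3 ± 23.9 TPM) formed a middle group in WT that did not separate beyond its spread. Hk1 (19.0 ± 3.80 TPM), Slc2a3 (17.2 ± 25.0 TPM) and Pfkp (16.3 ± 7.54 TPM) were lowest, the value of Slc2a3 resting on WT library 2 at 54.5 TPM. In Thra1PV/+ endometrium Slc2a3 was the lowest of the 10, at 3.67 ± 1.24 TPM.

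The balance between alternative genes for a step was measured as a log2 ratio of CPM for 8 pairs, a scale without gene length on which only libraries can be compared. No pair differed between genotypes in an exact two-sided permutation test, with Benjamini-Hochberg adjusted p from 0.731 to 0.971. The Hk2 to Hk1 ratio was 0.56, 4.48, 2.40 and 1.83 in the Thra1PV/+ libraries and 0.77, 0.50, 3.12 and 4.40 in the WT libraries. Hk1 counts thus exceeded Hk2 counts in the 3 stroma-rich libraries and fell below them in the other 5. Slc2a1 to Slc2a3 was 2.87, 22.5, 20.2 and 13.4 against 2.58, 0.21, 31.8 and 12.01, so WT library 2 was the sole library with more Slc2a3 than Slc2a1 counts.

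The Ldha to Ldhb ratio, set against the heart-type subunit that favours pyruvate formation, was 5.62, 19.6, 11.8 and 9.70 in Thra1PV/+ and 1.59, 4.57, 28.6 and 10.5 in WT. The lowest ratio was in the muscle-marked WT library 1, where Ldhb reached 337 CPM. Pfkm, the muscle-type phosphofructokinase, stood to Pfkl at a ratio of 0.22, 0.04, 0.06 and 0.09 in Thra1PV/+ and 0.53, 0.42, 0.07 and 0.06 in WT. Pfkp to Pfkl had a mean log2 ratio of -2.20 ± 0.18 in Thra1PV/+ and -1.84 ± 0.36 in WT (SD, n = 4 each). Aldoa to the brain-type Aldoc differed by -0.03 on the log2 scale between genotypes. Ldha to Pdha1, at the branch between lactate and acetyl-CoA, differed by 0.48, and the lactate exporter Slc16a3 to the monocarboxylate transporter Slc16a1 by 0.72, with 4 libraries per genotype overlapping for each.

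**Figure D4:**
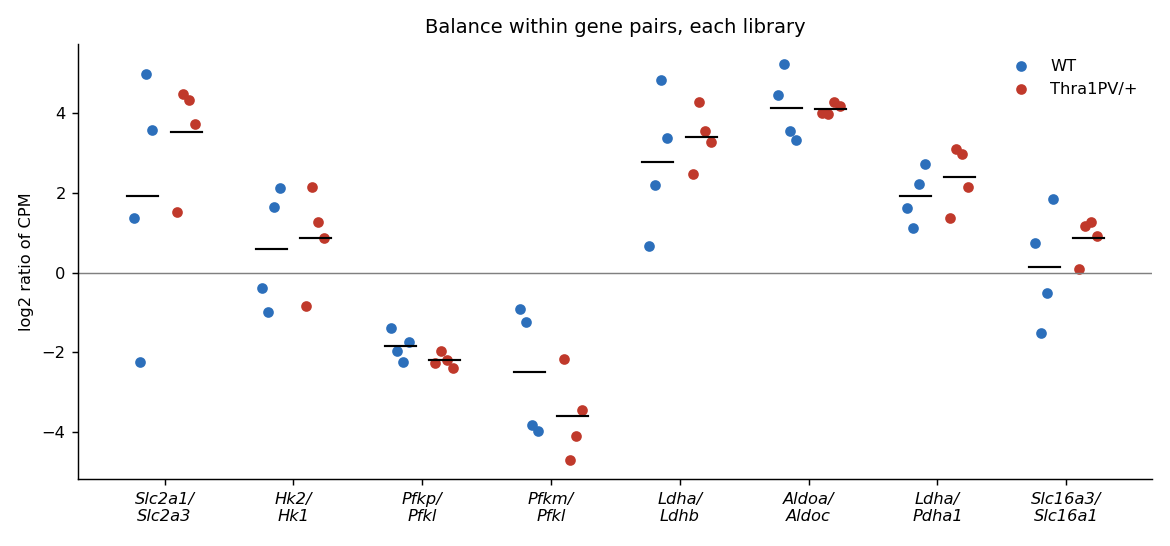
Log2 ratio of CPM for 8 gene pairs in each library, WT in blue and Thra1PV/+ in red, with the mean of each genotype as a bar. The points of the genotypes overlap for all 8 pairs, and the Hk2/Hk1 and Slc2a1/Slc2a3 points spread over more than 2 log2 units within each genotype.

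The 12 further lists of glucose metabolism held 142 genes, of which 130 were tested and 0 were called. At an unadjusted p under 0.05 there were 4 higher and 14 lower genes, 18 of 130 beside the 9.77% of all tested genes, and 8 of 130 did not overlap beside 6.04%. The median log2 fold change of the 130 was -0.11.

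Among hexose transporters 0 of 11 were called. Slc2a12, encoding GLUT12, measured 10.7, 1.60, 3.70 and 5.08 CPM in the Thra1PV/+ libraries and 45.0, 70.7, 18.1 and 7.47 CPM in the WT libraries. Only Thra1PV/+ library 1 and WT library 4 overlapped, and the log2 fold change was -2.75 (SE 0.79) with an adjusted p of 0.281 in edgeR, while DESeq2 called it with an adjusted p of 0.0098. Slc2a12 was also called with the marker level as a covariate, at a log2 fold change of -1.96 and an adjusted p of 0.0919.

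The list with most genes past the unadjusted threshold for its size was the transport of lactate and pyruvate, with 3 of 7 lower and 0 called. Mpc1 and Mpc2 encode the subunits of the carrier that brings pyruvate into mitochondria. Mpc1 measured 39.5, 30.1, 35.6 and 33.6 CPM in Thra1PV/+ and 66.7, 54.4, 42.8 and 49.4 CPM in WT, with every Thra1PV/+ library below every WT library. Its log2 fold change was -0.62 (SE 0.16, unadjusted p = 0.00472, edgeR adjusted p = 0.224). Mpc2 measured 47.0, 41.4, 38.6 and 39.9 CPM against 55.9, 61.8, 49.5 and 52.3 CPM, again without overlap, with a log2 fold change of -0.40 (SE 0.12, edgeR adjusted p = 0.319). Emb, encoding embigin, a partner of the monocarboxylate transporters, had 65.5 to 96.7 CPM in Thra1PV/+ and 56.6 to 246 CPM in WT.

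Of 15 other glycolytic enzymes tested, 0 were called. Ldhd, a D-lactate dehydrogenase of mitochondria, was at 25.4 to 38.9 CPM in Thra1PV/+ and at 26.5, 81.1, 69.97 and 58.0 CPM in WT libraries 1 to 4. Its log2 fold change was -0.89 (edgeR adjusted p = 0.396), and without WT library 1 it was called, at -1.09 and an adjusted p of 0.0646. Pklr, the liver-type pyruvate kinase, stayed under 1 CPM in all libraries. Pfkfb4, which sets the level of fructose 2,6-bisphosphate, measured 23.2, 31.2, 30.0 and 19.2 CPM in Thra1PV/+ and 12.8, 9.17, 17.9 and 18.04 CPM in WT, without overlap, with a log2 fold change of 0.84 (SE 0.26, edgeR adjusted p = 0.338).

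In the pyruvate dehydrogenase list 0 of 11 genes were called. Pdk2, a kinase that switches the complex off, measured 20.2 to 34.3 CPM in Thra1PV/+ and 27.4 to 67.2 CPM in WT, and Pdp2, a phosphatase that switches it on, had a log2 fold change of -1.01 (edgeR adjusted p = 0.481). In the citrate cycle 0 of 17 genes were called, and 15 of 17 fitted values were below 0, beside 10331 of 18174 over all genes, with a list median of -0.15. Sdha of succinate dehydrogenase was at 203.2, 182, 192 and 191 CPM in Thra1PV/+ and at 203.3, 248, 269 and 223 CPM in WT, and Sucla2 of succinyl-CoA synthetase at 55.4 to 60.3 CPM and 61.2 to 75.5 CPM. Both were without overlap, with log2 fold changes of -0.30 and -0.27 and edgeR adjusted p of 0.506 and 0.471.

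Sord, sorbitol dehydrogenase of the polyol route, measured 72.8, 57.4, 58.0 and 49.9 CPM in Thra1PV/+ and 40.2, 33.8, 8.52 and 19.8 CPM in WT. All Thra1PV/+ libraries were above all WT libraries, with a log2 fold change of 1.22 (SE 0.42, edgeR adjusted p = 0.383), and it was called with the marker level as a covariate, at 1.79 and an adjusted p of 0.0574. Phka1, a subunit of the kinase that activates glycogen phosphorylase, measured 10.98, 11.7, 10.3 and 11.98 CPM against 15.8, 14.9, 15.1 and 15.1 CPM. It was lower in each Thra1PV/+ library at a log2 fold change of -0.44 (SE 0.14, edgeR adjusted p = 0.349). Pygb, a glycogen phosphorylase, and Gbe1, the branching enzyme, had log2 fold changes of -0.65 and -0.71, and 0 of 20 glycogen genes were called.

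Of the hypoxia targets, 2 were at an unadjusted p under 0.05, and 0 of 14 were called. Car9, carbonic anhydrase 9, measured 8.72, 63.6, 69.8 and 32.3 CPM in Thra1PV/+ and 5.34, 1.17, 10.9 and 20.5 CPM in WT, a log2 fold change of 2.20 (SE 0.88, edgeR adjusted p = 0.463). Ddit4, an inhibitor of mTORC1 signalling, measured 91.2, 126, 165 and 146 CPM against 44.7, 35.1, 101 and 95.3 CPM, a log2 fold change of 0.93 (edgeR adjusted p = 0.458). Both overlapped between genotypes. The remaining lists had no gene at an unadjusted p under 0.05: gluconeogenesis (0 of 5), the pentose phosphate pathway (0 of 8) and regulators of glycolytic transcription (0 of 12). Their most abundant genes by mean CPM were Pcx (25.5 to 39.9 CPM in Thra1PV/+, 15.5 to 169 CPM in WT, first only through WT library 2), Tkt (213 to 270.5 and 178 to 319 CPM) and Txnip, an inhibitor of glucose uptake (618 to 911 and 344 to 1207 CPM).

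**Figure D5:**
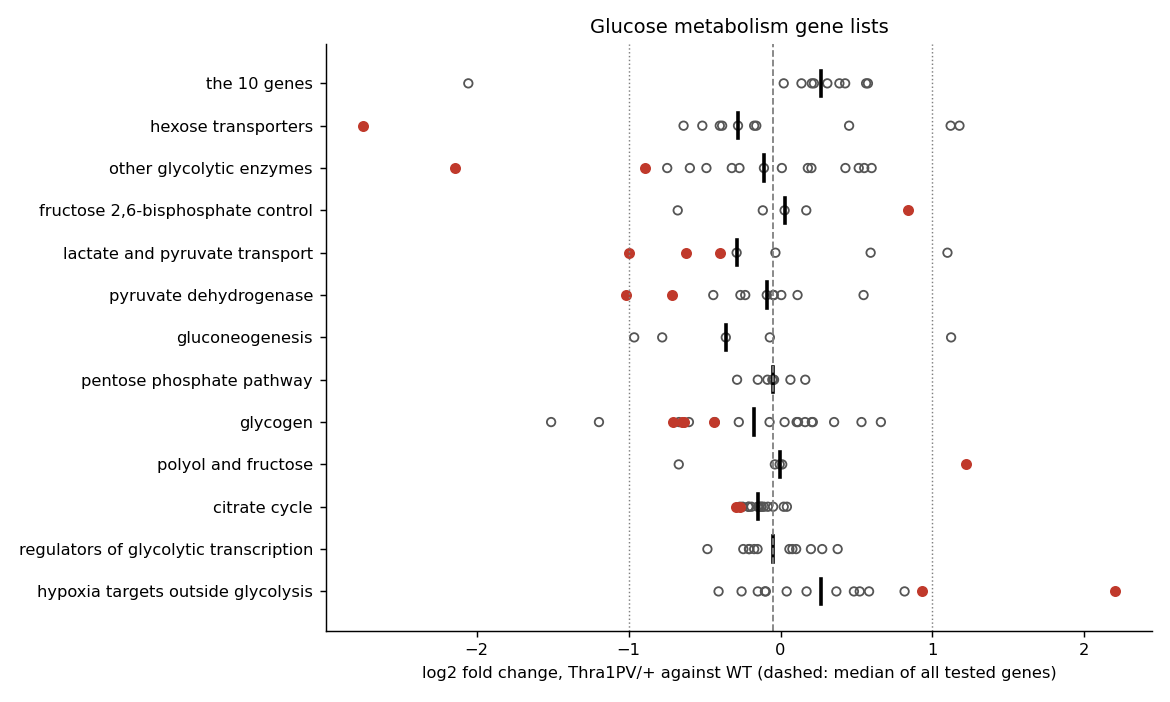
Log2 fold change, Thra1PV/+ against WT, of every tested gene of the 10 genes and 12 further lists, with black bars at list medians, filled points at an unadjusted p under 0.05 and the dashed line at the median of all tested genes, -0.05. Filled points lie mostly left of 0, with 14 lower and 4 higher over the 12 further lists, and no point passed the adjusted threshold with a 2-fold change.

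Thra itself, on chromosome 11, measured 127, 45.8, 67.8 and 80.0 CPM in the Thra1PV/+ libraries and 110, 104, 50.3 and 47.4 CPM in the WT libraries, with a log2 fold change of 0.04 (SE 0.39, edgeR adjusted p = 0.987). The mutant transcript differs by a frameshift that gene-level counts do not resolve, so these values do not check the genotype labels. Thra was higher in Thra1PV/+ library 1, WT library 1 and WT library 2 than in the other 5 libraries, as Hk1 was.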

How the data were processed

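The authors made stranded mRNA libraries, trimmed reads with Trimmomatic and quantified them with salmon for mouse genome mm10. Tool versions and the annotation release are not given in the sources used here. The deposited estimated counts are unnormalized values per gene. The deposited TPM have sorted columns that differ by at most 0.291 between libraries, which shows quantile normalization, and 1 more column of that table was not used.

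Estimated counts were rounded, and filterByExpr (minimum count 10, total 15) left 18174 of 52325 genes. Genotypes were compared by the quasi-likelihood test of edgeR 4.0.16 (R 4.3.3) after TMM scaling. Calls required a 2-fold change and a Benjamini-Hochberg adjusted p of 0.1 or less over all tested genes. Log2 CPM used a prior count of 2. DESeq2 1.42.0 and limma 3.58.1 gave alternatives, and single genes and pairs had exact permutation tests. With 4 libraries per genotype, the p-values set the genotype difference against the variation between these libraries. The fits were tested on simulated data. Positions are from GENCODE release M21 (GRCm38) and promoter windows from RefSeq (GRCm38.p6), where 9 of the 10 genes matched. Named copies of Gapdh, Ldha and Aldoa held at most 3.001 counts per library, apart from the second Aldoa locus.

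The genes and lists were chosen with earlier results of these data known. All 10 genes are named, and of each further list the called genes, otherwise up to 3 at an unadjusted p under 0.05, otherwise the most abundant. Exceptions are stated.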

Additional observations from a re-analysis of the deposited data

Results flagged for a closer look

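Dixon's ratio was examined in 90 groups of 4 libraries. These were the 10 genes, the genes picked by rule from the further lists, the pair genes and Thra as CPM, and the 8 pairs as log2 ratios, in each genotype. Among these groups, Slc2a3 in WT library 2 was the sole value that stood apart beyond the 95% limit. Cell type markers were not among them, and Acta1 was at 556 CPM in WT library 1 against 19.1, 2.37 and 30.4 CPM in WT libraries 2 to 4. The gap of Slc2a3 in WT library 2 to the next WT library was 0.868 of the whole WT range. For Slc2a3, WT library 2 had 154 CPM and the other 3 WT libraries 5.49 to 25.2 CPM. Chance gives about 1 in 20 groups, or 4.5 of 90.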

How the results depend on the processing

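Of the 10 genes, 0 were called under any of 24 alternatives (other scalings, filters and tools, the deposited TPM, looser thresholds, each library left out, and 3 fits chosen after seeing the data: the marker level as a covariate, the 3 stroma-rich libraries left out, and copies added to Aldoa, Gapdh and Ldha), and 0 by exact test or pair balance. In direction, 20 of 220 refitted values of the 10 genes changed sign, and the cause was not tested. Over all genes, calls went from 180 to 791 with DESeq2, 311 with voom quality weights, 419 with the covariate, 81 with 10 counts in every library, 1775 at an unadjusted p under 0.05 alone, and 81 to 167 with 1 library left out (81 without Thra1PV/+ library 3, 114 without WT library 4, 116 without Thra1PV/+ library 2). In the 12 further lists DESeq2 called 1 gene, the covariate fit 2, and the fits without 1 library 0 to 1. With the replicate number as a block (replicate block), 82 genes and 0 of the 10 were called. Same-numbered libraries did not pair: their deviations from the genotype means correlated at 0.269, -0.436, 0.34 and -0.159.

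Hk1 was -0.0037 and -0.0032 (log2) on TPM with 1 and 0.1 added. With the covariate, Slc2a1 was -0.17, Hk2 -0.60, Pfkp -0.29, Aldoa -0.43 and Ldha -0.32. Without the stroma-rich libraries, Slc2a3 was 0.17, Hk2 -0.14, Aldoa -0.0497 and Ldha -0.03995. With 1 library left out, Hk1 ran from -0.0543 to 0.14, Hk2 from -0.34 to 0.71, Pfkp from -0.0204 to 0.67 and Aldoa from -0.0739 to 0.46. The differences in pair balance ran from -0.27 to 0.83 for Hk2/Hk1, from -0.0687 to 1.32 for Ldha/Ldhb and from -0.30 to 0.34 for Aldoa/Aldoc, which was 0.13 on TPM. Each of the 10 genes had 276 or more counts in every library, so the spread between 4 libraries, rather than counting error, limits these comparisons.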
